A study of Arabidopsis thaliana with 8 samples.

Results

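Transcripts of 34 nuclear genes for carbon fixation and the pathway tied to it were followed in Arabidopsis thaliana seedlings mutated in subunits of ISWI chromatin remodelling complexes. The genes were chosen by locus identifier, with earlier results of these data known. They comprise 22 genes of the Calvin cycle (4 Rubisco small subunits, 3 genes for Rubisco assembly and activation, 4 for the reduction phase, 9 for regeneration of the CO2 acceptor and 2 CP12 regulators) and 12 genes of photorespiration (2 chloroplast, 6 peroxisomal and 4 mitochondrial). All 34 were listed in each deposited table, out of 23935 genes listed in any of them, and all 34 passed the filter on low values in every comparison.

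In the Calvin cycle, Rubisco attaches CO2 to a pentose bisphosphate in the chloroplast stroma, the product is reduced to triose phosphate with ATP and NADPH from the light reactions, and most of the triose phosphate is spent on rebuilding the acceptor. Rubisco also reacts with oxygen, which yields phosphoglycolate. Photorespiration recycles that compound through the chloroplast, the peroxisome and the mitochondrion, and returns glycerate to the chloroplast while releasing CO2 and ammonia. These pathways work in green tissue, and transcripts of their main enzymes, such as the Rubisco small subunits, are among the most abundant messages there.

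Messenger RNA was sequenced from whole Col-0 seedlings aged 10 days in 4 groups of 2 libraries: arid5 (-/-), chr11/17 (a plant labelled homozygous mutant at both CHR11 and CHR17), rlt1/2 (labelled homozygous mutant at both RLT1 and RLT2) and wild type (WT). All groups were raised on MS medium under long days, lit for 16 h (23 °C) and dark for 8 h (21 °C). The labels name no alleles, and they do not say whether the libraries of a group came from separate plants or cultures. The p-values given here therefore reflect the spread of these particular samples, and that spread may be technical. Recovered read totals ran between 23135817 and 29965298 per library.

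The mutated genes were read first. ARID5, the ISWI subunit with an ARID domain, had normalised read counts of 213 and 206 in arid5, against 831 and 845 in WT (log2 change -1.95 ± 0.09 SE, limma adjusted p = 5.8e-08). In the chr11/17 libraries CHR17, one of the paired ISWI ATPases, had 771 and 833, against 1395 and 1316 in WT (-0.75 ± 0.08), while CHR11, the other ATPase, had 7226 and 7319, against 3077 and 2915 in WT (1.28 ± 0.07). In the rlt1/2 libraries RLT2, a DDT-domain subunit, had 88 and 61, against 2292 and 2161 in WT (-4.75 ± 0.14), while RLT1, its homologue, had 2318 and 1908, against 1955 and 1970 in WT, and was not called (0.10 ± 0.09, adjusted p = 0.385). Both mutants are referred to by what their labels say, chr11/17 and rlt1/2, and the directions given for them rest on that labelling.

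Other tissues of the seedling were followed by marker lists. Of 17 root markers, 9 were called higher and 2 lower in arid5, 8 and 4 in the libraries labelled chr11/17, and 9 and 2 in those labelled rlt1/2. Over all genes tested, 47.9%, 71.8% and 47.9% were called either way in the same order, and 24.6%, 36.0% and 24.0% lower. The summed normalised counts of the root markers were 4680 and 4465 in arid5, against 3693 and 4021 in WT. They were 3881 and 4027 in the libraries labelled chr11/17, against 3687 and 4015 in WT, and 6056 and 6997 in those labelled rlt1/2, against 4092 and 4435 in WT. Of 10 seed storage and oil body markers, 7 were listed in the chr11/17 table, with sums of 524 and 200 in the libraries labelled chr11/17, against 8.37 and 7.29 in WT. Of the same 10, 3 were listed in the table of arid5 and 3 in that of rlt1/2, with sums of 30.02 and 31.02 in arid5, against 8.36 and 4.20 in WT, and of 42.1 and 51.4 in the libraries labelled rlt1/2, against 9.12 and 4.74 in WT. In WT CRC was listed at 0 in each library of the chr11/17 table, and SESA4 in each library of every table. Among the root markers, LRX1, a root hair cell wall gene (1.09, 0.55 and 1.69 in arid5 and the libraries labelled chr11/17 and rlt1/2), and PRP3, a root hair proline-rich protein (0.94, 0.80 and 1.53 in the same order), were called higher in every mutant. TIP2-3, a tonoplast aquaporin (-1.65, -0.999 and -1.38), and SCR, a regulator of the root endodermis (-0.35, -0.61 and -0.23), were called lower in every mutant. NRT2.1, a nitrate transporter, was higher in arid5 (1.15) and in the libraries labelled rlt1/2 (1.54) and lower in those labelled chr11/17 (-0.82). WOX5, a gene of the root stem cell niche, was higher in the libraries labelled chr11/17 (1.77) and was not called in arid5 (-0.38) or in those labelled rlt1/2 (0.040). The seed storage gene CRA1 had 270 and 70.6 in the libraries labelled chr11/17, against 8.34 and 2.13 in WT (3.33 ± 0.54). The part of tissue makeup in the results below was not tested, and in whole seedlings fewer green cells and less RNA per green cell cannot be told apart.

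Calvin cycle and photorespiration transcripts were lower in every mutant, with few exceptions by gene but more under quantile normalization. Each of the 34 had both mutant libraries below both WT libraries in each of the 3 comparisons. With limma, 33 of 34 were called lower in arid5, 34 of 34 in the libraries labelled chr11/17 and 33 of 34 in those labelled rlt1/2, and 0 were called higher in any of them. PGLP1 in arid5 and PGK1 in the libraries labelled rlt1/2 did not pass. Quantile normalization turned the direction of PGK1, RBCS3B and FBA2 in arid5 and of RBCS3B, FBA2, TKL1 and the uncalled PGK1 in the libraries labelled rlt1/2, and equal library totals turned that of PGK1 in arid5. The median change was -0.75 in arid5, -1.95 in the libraries labelled chr11/17 and -0.89 in those labelled rlt1/2 on the log2 scale. Medians over all genes tested were 0.003, -0.007 and 0.009. Under quantile normalization the medians of the 34 were -0.37, -1.61 and -0.45 in the same order. With that scaling 22, 33 and 24 of the 34 were called lower, and 1 was called higher in arid5. The 3 comparisons share the WT libraries, so their counts are not independent of each other.

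These counts stand against a broad background of change. Of all genes tested, 47.9% were called either way in arid5, 71.8% in the libraries labelled chr11/17 and 47.9% in those labelled rlt1/2, and 24.6%, 36.0% and 24.0% were called lower. Both mutant libraries lay below both WT libraries in 37.3%, 43.9% and 37.3% of genes tested. Among abundant genes the share was larger. With a WT mean of at least 1000, which 32 of the 34 genes reach, 46.6% of genes were called lower in arid5, 49.6% in the libraries labelled chr11/17 and 43.3% in those labelled rlt1/2. With a WT mean of at least 5000, which 30 or 31 of the 34 genes reach, 61.2%, 62.0% and 60.0% of genes were called lower. A fall of more than 1 on the log2 scale was less common. It was found in 2.98% of genes tested in arid5, 16.6% in the libraries labelled chr11/17 and 3.81% in those labelled rlt1/2, and in 8, 29 and 6 of the 34 genes.

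**Figure D1:**
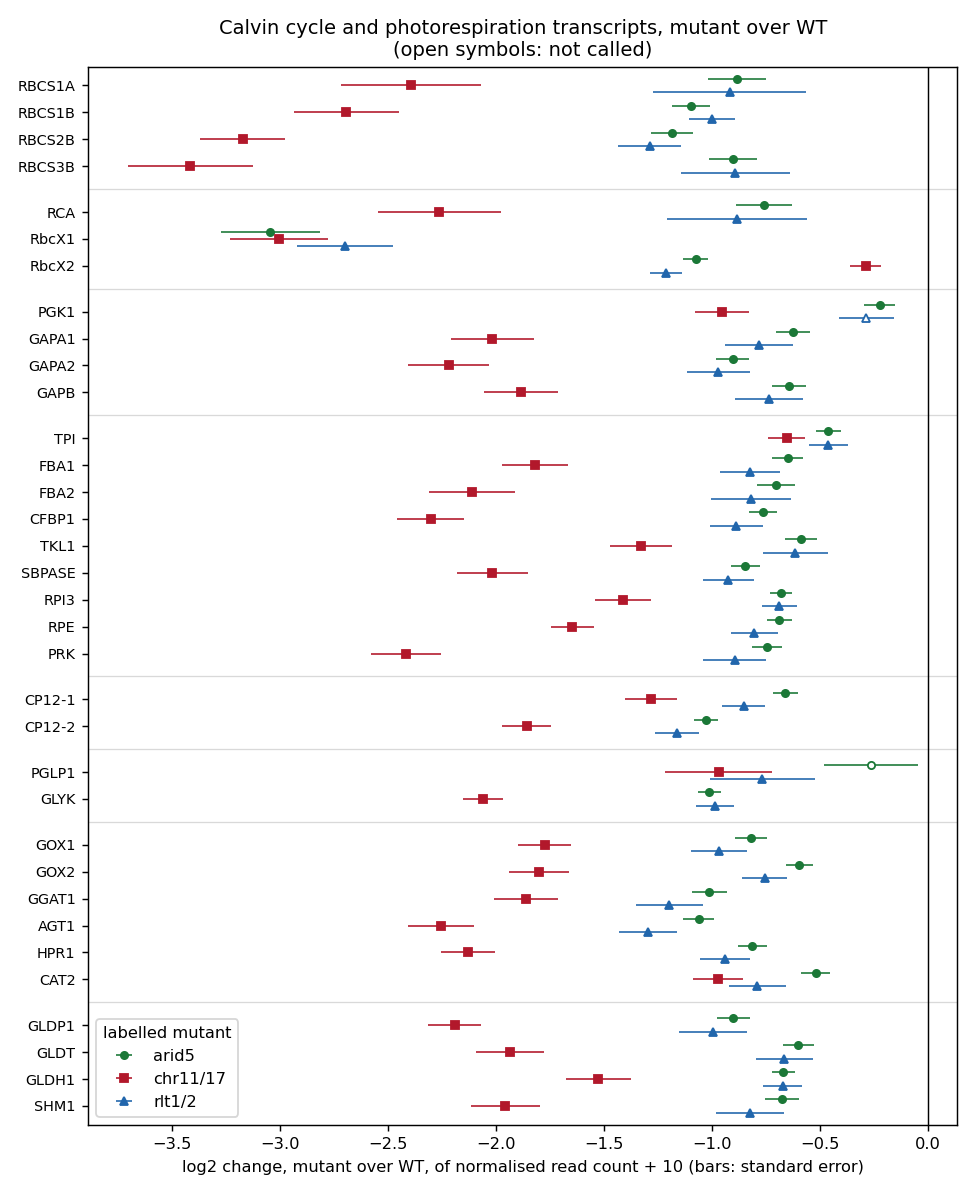
Log2 change of the normalised read count plus 10, mutant over WT, for the 34 genes in rows grouped by role; symbols are arid5 (circles), chr11/17 (squares) and rlt1/2 (triangles), bars are standard errors from limma with 2 libraries a group, and open symbols were not called. Squares lie left of the other symbols in 32 of 34 rows; the exceptions are RbcX1 and RbcX2.

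The small subunit of Rubisco is encoded by 4 nuclear genes, RBCS1A (AT1G67090) on chromosome 1 and RBCS1B (AT5G38430), RBCS2B (AT5G38420) and RBCS3B (AT5G38410) side by side on chromosome 5. The 250 bases upstream of the annotated start are shown for RBCS2B (chr5:15382072-15382321, minus strand) and RBCS3B (chr5:15378643-15378892, minus strand), the pair that fell most in the libraries labelled chr11/17, from the RefSeq annotation of TAIR10.1. Capitals mark the G-box (CACGTG), the I-box (GATAAG) and the GT-1 core (GGTTAA), motifs known from light-regulated plant promoters, on either strand.
RBCS2B: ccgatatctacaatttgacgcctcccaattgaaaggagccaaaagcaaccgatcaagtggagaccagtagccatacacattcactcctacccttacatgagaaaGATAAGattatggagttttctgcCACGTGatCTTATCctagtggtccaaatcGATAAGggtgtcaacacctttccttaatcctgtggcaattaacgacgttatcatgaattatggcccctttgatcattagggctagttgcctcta
RBCS3B: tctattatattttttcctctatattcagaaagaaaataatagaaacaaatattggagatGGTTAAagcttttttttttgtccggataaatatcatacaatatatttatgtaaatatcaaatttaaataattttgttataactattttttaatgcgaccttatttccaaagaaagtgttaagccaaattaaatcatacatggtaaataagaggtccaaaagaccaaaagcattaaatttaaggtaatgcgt
The RBCS2B stretch holds 1 G-box and 3 I-boxes, and the RBCS3B stretch 1 GT-1 core, with no overlapping matches. The stretches end at the annotated starts, which need not lie at matching positions in these genes. A motif absent from a stretch may therefore lie outside it. A match of letters is not evidence of a bound site.

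All 4 RBCS transcripts were called lower in each mutant. RBCS1A, which ranked second among all genes of the table in WT, had normalised read counts of 194662 and 209750 in arid5, against 373329 and 371270 in WT (-0.88 ± 0.13, adjusted p = 0.000227). It had 56973 and 87796 in the libraries labelled chr11/17, against 372810 and 370737 in WT (-2.39 ± 0.32, adjusted p = 0.000487). Those labelled rlt1/2 had 244635 and 193961, against 413382 and 409839 in WT (-0.92 ± 0.35, adjusted p = 0.0486). Every mutant library lay below both WT libraries of its own table. In reads scaled to exon length and depth over all 8 libraries, the chr11/17-labelled pair lay lowest (1904 and 2917).

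RBCS3B had 93821 and 105815 in arid5, against 188410 and 183843 in WT (-0.90 ± 0.11). With 12829 and 23645 in the libraries labelled chr11/17, against 188148 and 183579 in WT, it fell furthest there (-3.41 ± 0.29, adjusted p = 4.71e-05), to a mean of 9.81% of the WT mean. On the log2 scale with the offset of 10 this was the lowest change of the 34 genes in any mutant, while as a share of the WT mean RbcX1 stood lower (5.89% in arid5 and 6.25% in the libraries labelled chr11/17). It had 124807 and 98586 in the libraries labelled rlt1/2, against 208624 and 202941 in WT (-0.89 ± 0.25). RBCS2B was at 44.3% of the WT mean in arid5, 11.3% in the libraries labelled chr11/17 and 41.0% in those labelled rlt1/2. RBCS1B was at 47.0%, 16.1% and 50.2% in the same order. Between 14.0% and 21.4% of the 50-base words in the transcripts of RBCS1B, RBCS2B and RBCS3B also occur in another gene, so reads could be split among them in a way the sources used here do not state.

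The call for RBCS1A in the libraries labelled rlt1/2 depended on the processing. It was lost with a pseudocount of 50, with no filter, with equal library totals, with quantile normalization, and without WT replicate 1 (-0.91) or WT replicate 2 (-0.92). Its adjusted p over all alternatives ran between 2.42e-16 and 1. Under quantile normalization, which gives all libraries of a table the same set of values, RBCS1A came out at a change of 0 in arid5 and in the libraries labelled rlt1/2, where it keeps the second rank of WT, and RBCS3B came out higher (0.090 and 0.24).

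**Figure D2:**
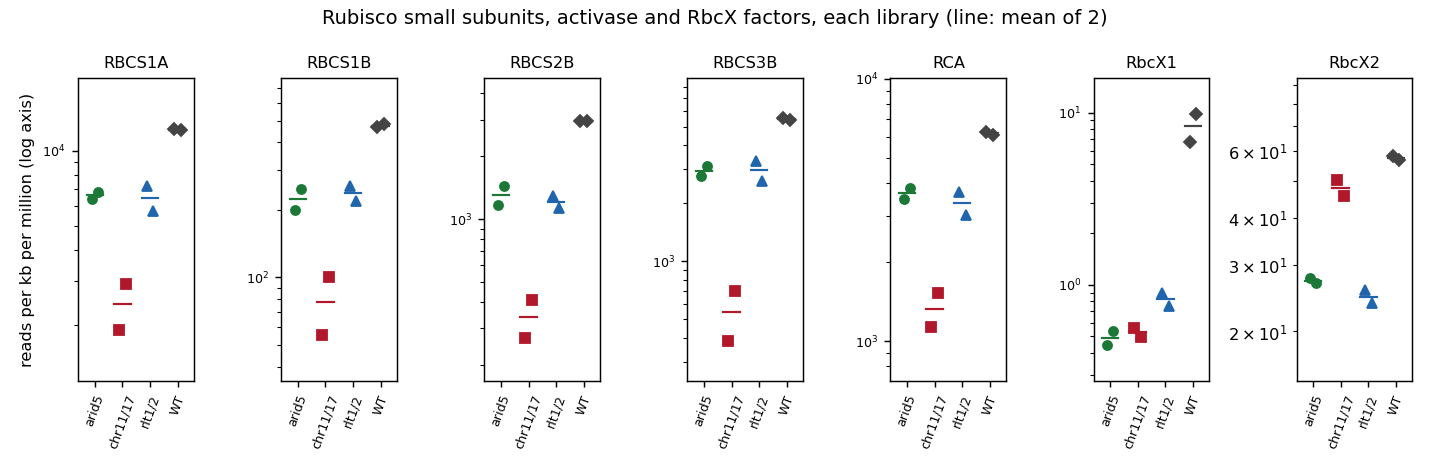
RPKM, reads scaled to exon length and depth (log axis, scaled separately in each panel) of the Rubisco small subunit genes, RCA, RbcX1 and RbcX2 in each library, with a line at the mean of 2. On this scale mutant libraries lie below WT in every panel (RBCS3B in arid5 and rlt1/2 turns with quantile normalization), and for RbcX2 the chr11/17-labelled libraries (50.4 and 45.7) lie between WT and the other mutants.

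Together the RBCS genes took 1.44% and 1.58% of all gene reads in arid5, 0.321% and 0.520% in the libraries labelled chr11/17, and 1.64% and 1.37% in those labelled rlt1/2, against 2.38% and 2.39% in WT. In the libraries labelled chr11/17 the shares of RBCS3B and RBCS1A within the family lay outside those of all other libraries. There RBCS3B gave 16.4% and 18.9% of RBCS reads, against 29.0% and 28.6% in WT, while RBCS1A gave 72.8% and 70.2%, against 57.5% and 57.7% in WT. In arid5 RBCS3B gave 29.0% and 29.4%, and in the libraries labelled rlt1/2 30.1% and 29.7%. RBCS2B gave less in every mutant, at 8.11% and 9.04% in arid5, 7.60% and 7.25% in the libraries labelled chr11/17 and 7.75% and 8.47% in those labelled rlt1/2, against 10.2% and 10.3% in WT. No test was made on these shares, since 2 libraries against 2 cannot give a small p by exact permutation.

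All 34 genes together held 4.75% and 5.07% of the reads in arid5, 1.56% and 2.12% in the libraries labelled chr11/17 and 5.04% and 4.28% in those labelled rlt1/2, against 7.09% and 7.10% in WT. The Calvin cycle genes accounted for 3.72% and 3.99% in arid5, 1.13% and 1.59% in the libraries labelled chr11/17 and 4.01% and 3.39% in those labelled rlt1/2, against 5.56% and 5.55% in WT. Photorespiration genes accounted for 1.03% and 1.08%, for 0.434% and 0.525%, and for 1.03% and 0.888% in the same order, against 1.53% and 1.54% in WT.

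**Figure D3:**
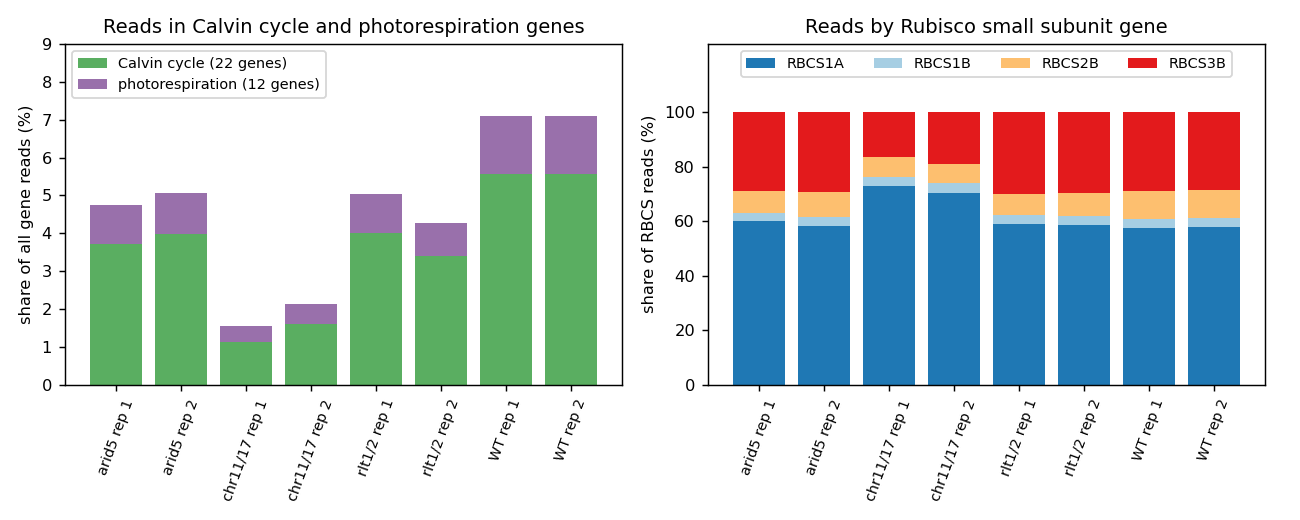
Left, share of all gene reads (%) in the 22 Calvin cycle and 12 photorespiration genes, per library; right, share of Rubisco small subunit reads (%) by gene, per library. The 2 chr11/17-labelled libraries have the shortest bars on the left (1.56% and 2.12%) and the smallest RBCS3B segment on the right (16.4% and 18.9%).

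RCA (AT2G39730), Rubisco activase, frees Rubisco of inhibitory sugar phosphates. It had 176526 and 194453 in arid5, against 316037 and 310473 in WT (-0.76 ± 0.13, adjusted p = 0.000539). Counts of RCA were 56096 and 75864 in the libraries labelled chr11/17, against 315598 and 310027 in WT (-2.26 ± 0.29). The gene ranked 14 and 8 among all genes there, against rank 3 in both WT libraries. Those labelled rlt1/2 had 208076 and 168929, against 349944 and 342726 in WT (-0.89 ± 0.32, adjusted p = 0.0399). That last call was lost under the same alternatives as for RBCS1A, with changes of -0.87 without WT replicate 1 and -0.90 without WT replicate 2, and under quantile normalization the change was 0 in arid5 and in the libraries labelled rlt1/2.

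RbcX1 (AT4G04330) and RbcX2 (AT5G19855) encode plant homologues of a chaperone that helps assemble the Rubisco large subunit. RbcX1, a low transcript, had 7.74 and 9.42 in arid5, against 119 and 173 in WT (-3.04 ± 0.23, adjusted p = 1.17e-06). It had 9.59 and 8.57 in the libraries labelled chr11/17, against 118 and 172 in WT (-3.004 ± 0.23), and 17.5 and 14.4 in those labelled rlt1/2, against 132 and 190 in WT (-2.70 ± 0.22). Its means were 5.89%, 6.25% and 9.94% of the WT means, and on the log2 scale it was the member with the lowest change in arid5 and in the libraries labelled rlt1/2. The offset of 10 in the log2 scale understates such a change. RbcX1 overlaps AT4G04320, which shares 13.6% of the 50-base words of RbcX1 and was not called in any mutant.

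RbcX2 was lower in arid5 (1108 and 1080, against 2342 and 2293 in WT, -1.08 ± 0.06) and in the libraries labelled rlt1/2 (1146 and 1054, against 2593 and 2531 in WT, -1.21 ± 0.07). The libraries labelled chr11/17 had 1982 and 1808, against 2339 and 2290 in WT (-0.29 ± 0.07, adjusted p = 0.00977), the smallest change of the 34 genes there. This last call was lost with equal library totals (-0.13), without WT replicate 1 (-0.27) and without WT replicate 2 (-0.30). Its adjusted p over all alternatives ran between 0.000277 and 0.139.

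The stretch upstream of RbcX1 (chr4:2118618-2118867, minus strand, RefSeq TAIR10.1) is shown because this gene changed in a different proportion from the others. Capitals mark the evening element (AAATATCT), a motif of clock-regulated plant promoters, read on either strand.
RbcX1: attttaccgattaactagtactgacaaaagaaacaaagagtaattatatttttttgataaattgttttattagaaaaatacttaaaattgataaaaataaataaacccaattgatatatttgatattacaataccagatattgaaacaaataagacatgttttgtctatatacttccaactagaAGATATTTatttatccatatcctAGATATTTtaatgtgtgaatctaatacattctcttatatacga
It holds 2 evening elements. Among the 34 genes, 2 (5.88%) held this motif within 250 bases upstream and 50 downstream of the start, against 5.65% of 27443 windows of the same length over the genome. A G-box was held by 6 of 34 (17.6%, against 7.68% of all windows) and an I-box by 7 (20.6%, against 14.6%). The GT-1 core was held by 5 (14.7%, against 16.7%). These shares are descriptions of the letters only and were not tested.

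In the reduction phase, PGK1 (AT3G12780), the plastid phosphoglycerate kinase, changed least. It had 26346 and 28658 in arid5, against 32166 and 32025 in WT (-0.22 ± 0.07, adjusted p = 0.0217). That call was lost without WT replicate 1 (-0.22) or WT replicate 2 (-0.23), and its direction turned with equal library totals (0.039) and with quantile normalization (0.22, there called higher); its adjusted p over all alternatives ran between 0.000759 and 0.612. It had 15277 and 17953 in the libraries labelled chr11/17, against 32121 and 31979 in WT (-0.95 ± 0.12). It had 31417 and 26976 in those labelled rlt1/2, against 35616 and 35352 in WT, and was not called (-0.29 ± 0.13, adjusted p = 0.0849, unadjusted p = 0.0452). It was called lower there with DESeq2 (-0.29, adjusted p = 0.00894), without rlt1/2 replicate 1 (-0.40) and without rlt1/2 replicate 2 (-0.18).

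The subunits of the NADP-dependent glyceraldehyde phosphate dehydrogenase, GAPA1 (AT3G26650), GAPA2 (AT1G12900) and GAPB (AT1G42970), were called lower in each mutant. GAPA2 had 30284 and 32055 in arid5, against 59190 and 57427 in WT (-0.90 ± 0.08). Its counts were 10375 and 15051 in the libraries labelled chr11/17, against 59107 and 57345 in WT (-2.22 ± 0.19), and in those labelled rlt1/2 35541 and 30479, against 65540 and 63393 in WT (-0.97 ± 0.15). GAPA1 changed by -0.62, -2.02 and -0.78 in arid5 and the libraries labelled chr11/17 and rlt1/2, and GAPB by -0.64, -1.88 and -0.73. Quantile normalization took away the calls of GAPA1 and GAPB in arid5 (-0.046 and -0.080) and in the libraries labelled rlt1/2 (-0.13 and -0.092). The 3 subunit transcripts had similar levels per length, at 1509, 1497 and 1334 RPKM (reads scaled to exon length and depth) in WT on average for GAPA1, GAPA2 and GAPB.

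The 9 genes of the regeneration phase were called lower in every mutant, with median changes of -0.69 in arid5, -1.82 in the libraries labelled chr11/17 and -0.82 in those labelled rlt1/2. The largest fall of the 9 in the libraries labelled chr11/17 was that of PRK (AT1G32060), phosphoribulokinase, which makes the CO2 acceptor. It had 6142 and 8626 there, against 38967 and 38789 in WT (-2.42 ± 0.16, adjusted p = 1.77e-05). PRK had 22628 and 23887 in arid5, against 39021 and 38844 in WT (-0.74 ± 0.07), and 26671 and 20080 in the libraries labelled rlt1/2, against 43208 and 42880 in WT (-0.89 ± 0.14).

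CFBP1 (AT3G54050), the plastid fructose bisphosphatase, came next. It had 11946 and 12983 in arid5, against 21760 and 20572 in WT (-0.76 ± 0.07). It had 3610 and 5065 in the libraries labelled chr11/17, against 21730 and 20543 in WT (-2.30 ± 0.16). Those labelled rlt1/2 had 14381 and 11110, against 24094 and 22710 in WT (-0.89 ± 0.12). Its upstream stretch (chr3:20016587-20016836, plus strand, RefSeq TAIR10.1) is shown as the other one among the 34 that holds a G-box and more than 1 I-box, in capitals.
CFBP1: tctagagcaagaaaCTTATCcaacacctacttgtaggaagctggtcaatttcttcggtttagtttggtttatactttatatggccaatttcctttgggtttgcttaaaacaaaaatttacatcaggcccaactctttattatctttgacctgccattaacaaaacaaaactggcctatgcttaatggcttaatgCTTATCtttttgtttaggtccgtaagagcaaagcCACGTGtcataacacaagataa
The matches, 1 G-box and 2 I-boxes, do not overlap. Of the 50-base words of the CFBP1 transcript, 4.52% are shared with its neighbour AT3G54060, which had at most 45.2 normalised reads in any library of the 3 tables.

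SBPASE (AT3G55800), the sedoheptulose bisphosphatase that commits carbon to regeneration, changed by -0.85 ± 0.07 in arid5, -2.02 ± 0.16 in the libraries labelled chr11/17 and -0.92 ± 0.12 in those labelled rlt1/2. The plastid aldolases FBA1 (AT2G21330) and FBA2 (AT4G38970), which join triose phosphates, changed by -0.65 and -0.70 in arid5, -1.82 and -2.11 in the libraries labelled chr11/17 and -0.82 and -0.82 in those labelled rlt1/2. Changes of RPE (AT5G61410), the ribulose phosphate epimerase, were -0.69, -1.65 and -0.80, and those of RPI3 (AT3G04790), the plastid ribose phosphate isomerase, were -0.68, -1.41 and -0.69. TKL1 (AT3G60750), a plastid transketolase, changed by -0.59, -1.33 and -0.61. With quantile normalization FBA2 was higher in arid5 (0.051) and in the libraries labelled rlt1/2 (0.032). TKL1 was then at -0.012 and 0.026 in the same order, and neither gene was called in either.

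TPI (AT2G21170), the plastid triose phosphate isomerase, was the regeneration gene that changed least. It had 9039 and 9306 in arid5, against 12948 and 12326 in WT (-0.46 ± 0.06), and 7740 and 8301 in the libraries labelled chr11/17, against 12930 and 12308 in WT (-0.65 ± 0.09). It had 10616 and 9690 in those labelled rlt1/2, against 14336 and 13607 in WT (-0.46 ± 0.09). Its groups did not overlap in any comparison, and its call in the libraries labelled rlt1/2 was lost without WT replicate 1 (-0.42) and with equal library totals (-0.19).

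CP12 proteins hold GAPDH and PRK in an inactive complex in the dark. CP12-2 (AT3G62410) had 2694 and 2661 in arid5, against 5642 and 5313 in WT (-1.03 ± 0.06, adjusted p = 1.69e-07). It had 1334 and 1690 in the libraries labelled chr11/17, against 5634 and 5305 in WT (-1.86 ± 0.11), and 3055 and 2389 in those labelled rlt1/2, against 6247 and 5865 in WT (-1.16 ± 0.10). CP12-1 (AT2G47400) changed less in each, by -0.66 ± 0.06, -1.28 ± 0.12 and -0.85 ± 0.10.

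Photorespiration transcripts were lower too. The 12 genes had median changes of -0.75 in arid5, -1.90 in the libraries labelled chr11/17 and -0.88 in those labelled rlt1/2, against -0.75, -2.02 and -0.89 for the 22 Calvin cycle genes, and the difference between these groups of genes was not tested. In arid5 11 of 12 were called lower, and all 12 in each of the others. GLYK (AT1G80380), the glycerate kinase that closes the pathway in the chloroplast, had 3274 and 3457 in arid5, against 6747 and 6838 in WT (-1.01 ± 0.05). It had 1488 and 1760 in the libraries labelled chr11/17, against 6738 and 6828 in WT (-2.06 ± 0.09), and 4123 and 3476 in those labelled rlt1/2, against 7471 and 7548 in WT (-0.99 ± 0.09).

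PGLP1 (AT5G36700), the phosphoglycolate phosphatase that opens the pathway, could not be measured well. It had 25.2 and 28.2 in arid5, against 34.8 and 33.4 in WT (-0.26 ± 0.22, adjusted p = 0.347). It had 17.3 and 8.49 in the libraries labelled chr11/17, against 34.7 and 33.3 in WT (-0.97 ± 0.25, adjusted p = 0.0102), and 21.3 and 15.1 in those labelled rlt1/2, against 38.5 and 36.9 in WT (-0.77 ± 0.24, adjusted p = 0.0205). A near-identical copy, AT5G36790, shares 94.1% of the 50-base words of the PGLP1 transcript. The copy had 411 and 822 in arid5, against 535 and 891 in WT, so its level differed between libraries of 1 group by more than between these groups. With the copies summed, a choice made after seeing the data, the change was -0.25 in arid5 (not called), -1.75 in the libraries labelled chr11/17 and -0.61 in those labelled rlt1/2. For PGLP1 alone, the call in the libraries labelled chr11/17 was lost without WT replicate 1 (-0.95), without chr11/17 replicate 2 (-0.69) and with DESeq2 (-1.38), and that in the libraries labelled rlt1/2 without WT replicate 1 (-0.74), WT replicate 2 (-0.79) or rlt1/2 replicate 2 (-0.61), with equal library totals (-0.56) and with DESeq2 (-1.05).

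In the peroxisome, the 6 genes were called lower in each mutant. AGT1 (AT2G13360), serine:glyoxylate aminotransferase, had 23729 and 25400 in arid5, against 51318 and 51185 in WT (-1.06 ± 0.07, adjusted p = 5.99e-07). It had 9354 and 12270 in the libraries labelled chr11/17, against 51246 and 51112 in WT (-2.26 ± 0.15), and 25004 and 21233 in those labelled rlt1/2, against 56824 and 56502 in WT (-1.30 ± 0.13). GGAT1 (AT1G23310), glutamate:glyoxylate aminotransferase, changed by -1.01, -1.86 and -1.20, and HPR1 (AT1G68010), hydroxypyruvate reductase, by -0.81, -2.13 and -0.94. The glycolate oxidases GOX1 (AT3G14420) and GOX2 (AT3G14415), which release hydrogen peroxide, changed by -0.82 and -0.60 in arid5, -1.77 and -1.80 in the libraries labelled chr11/17 and -0.97 and -0.76 in those labelled rlt1/2.

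CAT2 (AT4G35090), the catalase that removes this peroxide, changed less in the libraries labelled chr11/17 than the oxidases did. It had 26928 and 26450 in arid5, against 38315 and 38235 in WT (-0.52 ± 0.07). The libraries labelled chr11/17 had 19425 and 19551, against 38262 and 38180 in WT (-0.97 ± 0.12), and those labelled rlt1/2 had 26703 and 22456, against 42426 and 42207 in WT (-0.79 ± 0.13). The CAT2 call in arid5 was lost with quantile normalization (-0.032). The difference between genes was not tested.

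In the mitochondrion, glycine decarboxylase and serine hydroxymethyltransferase turn glycine into serine and release the CO2. GLDP1 (AT4G33010), the P protein of the decarboxylase, had 30150 and 31572 in arid5, against 59085 and 56174 in WT (-0.90 ± 0.08). It had 11920 and 13299 in the libraries labelled chr11/17, against 59003 and 56093 in WT (-2.19 ± 0.12), and 36425 and 28081 in those labelled rlt1/2, against 65424 and 62010 in WT (-0.99 ± 0.16). SHM1 (AT4G37930), the hydroxymethyltransferase, changed by -0.68, -1.96 and -0.82, GLDT (AT1G11860), the T protein, by -0.60, -1.93 and -0.66, and GLDH1 (AT2G35370), an H protein, by -0.67, -1.53 and -0.67. With quantile normalization the calls of SHM1 and GLDT were lost in arid5 (-0.073 and -0.11) and in the libraries labelled rlt1/2 (-0.16 and -0.16).

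Calls in the rlt1/2 comparison depended on keeping both WT libraries more than calls in the others did, while the median change there moved little. Without WT replicate 1, 23 of the 34 genes were called lower there, and 24 without WT replicate 2, with medians of -0.86 and -0.90. The genes that lost their call in both cases were RBCS1A, RBCS3B, RCA, GAPA1, GAPB, FBA2, TKL1, PGLP1 and GLDT. A lone WT library is assumed in that fit to vary like the mutant libraries.

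Replicates of a mutant also differed from each other across these genes as a block. In arid5 replicate 1 was below replicate 2 in 31 of 34 genes, with a median log2 ratio of -0.10, and in the libraries labelled chr11/17 in 31 of 34, with a median of -0.41. In the libraries labelled rlt1/2 replicate 1 was below replicate 2 in 0 of 34, with a median of 0.25. The WT libraries differed by a median of 0.01 to 0.02 in the 3 tables, with replicate 1 below replicate 2 in 8 to 10 genes. RBCS1B showed this in the libraries labelled chr11/17, with 2480 in replicate 1 and 4498 in replicate 2, while GLDP1 had 11920 and 13299.

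The mutants were then set against each other with edgeR's quasi-likelihood test on recovered reads of all 8 libraries. In the libraries labelled chr11/17, 31 of 34 genes were called lower than in arid5 and 1 higher, against a background of 65.2% of genes called either way and 33.0% called lower. Against the libraries labelled rlt1/2, 29 were called lower and 1 higher in those labelled chr11/17, with 64.8% of genes called either way and 32.6% called lower. The median differences were -1.14 and -1.02. For RBCS3B the difference was -2.42 ± 0.25 against arid5 (adjusted p = 9.63e-06) and -2.44 ± 0.25 against the libraries labelled rlt1/2 (adjusted p = 1.03e-05), and for PRK -1.63 ± 0.17 and -1.48 ± 0.17.

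RbcX2 was the gene called higher in both cases. In the libraries labelled chr11/17 it exceeded arid5 by 0.82 ± 0.08 (adjusted p = 5.21e-06) and the libraries labelled rlt1/2 by 0.96 ± 0.08 (adjusted p = 1.8e-06). RbcX1 was not called in either, with 95% intervals of the difference of -0.94 to 1.15 and -1.54 to 0.29. TPI was not called either, with narrower intervals of -0.36 to 0.03 and -0.35 to 0.03. CAT2 and PGLP1 were called lower against arid5 (-0.42 ± 0.11 and -1.01 ± 0.39) and not against the libraries labelled rlt1/2 (-0.16, interval -0.39 to 0.08, and -0.31, interval -1.22 to 0.59). With equal library totals TPI was called lower in both (-0.29 and -0.31) and CAT2 against those labelled rlt1/2 (-0.30). The PGLP1 call against arid5 was lost without either arid5 replicate, without chr11/17 replicate 2, with DESeq2 and with only the compared groups in the fit. The call for CP12-1 against the libraries labelled rlt1/2 (-0.39 ± 0.11) was lost without chr11/17 replicate 1 (-0.25) or rlt1/2 replicate 1 (-0.30).

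Between the libraries labelled rlt1/2 and arid5, 0 of the 34 genes were called with edgeR or with DESeq2, and 1 had an unadjusted p below 0.05, which was CAT2 (-0.27, interval -0.50 to -0.04). Over all genes 0.366% were called either way and 0.0423% lower. The median difference of the 34 was -0.12, and its direction rested on single libraries: it was -0.27 without rlt1/2 replicate 1, 0.039 without rlt1/2 replicate 2, -0.15 without arid5 replicate 1 and -0.047 without arid5 replicate 2. Apart from RbcX1 (0.74, interval -0.19 to 1.66) and PGLP1 (-0.70, interval -1.51 to 0.10), the differences lay between -0.27 and 0.09, and their 95% intervals between -0.54 and 0.57.

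Further isoforms of Calvin cycle enzymes, in the plastid or the cytosol, were called in both directions. Of 8 other genes listed for the cycle, 4 were called higher and 3 lower in arid5. The counts were 3 and 4 in the libraries labelled chr11/17 and 4 and 3 in those labelled rlt1/2. The 8 are other plastid isoforms, the other ribose phosphate isomerases and the regulator CP12-3. Among all genes tested, 47.9%, 71.8% and 47.9% were called either way in the same order of mutants, and 24.6%, 36.0% and 24.0% lower. TKL2, another transketolase, had 2407 and 2168 in arid5, against 1072 and 1100 in WT (1.07 ± 0.07). It had 5981 and 5382 in the libraries labelled chr11/17, against 1070 and 1098 in WT (2.38 ± 0.08), and 2526 and 2860 in those labelled rlt1/2, against 1187 and 1214 in WT (1.16 ± 0.08). TKL1 and TKL2 thus changed in opposite directions in every mutant as reported, but this depended on the processing for TKL1. Under quantile normalization TKL1 was not called in arid5 (-0.012) or in the libraries labelled rlt1/2 (0.026). Its call in those labelled rlt1/2 was also lost without WT replicate 1 (-0.58) or WT replicate 2 (-0.64).

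FBA3, another plastid aldolase, was higher as well, with 8072 and 7239 in arid5, against 4722 and 4812 in WT (0.68 ± 0.06), 13850 and 12349 in the libraries labelled chr11/17, against 4715 and 4805 in WT (1.46 ± 0.09), and 8525 and 9435 in those labelled rlt1/2, against 5228 and 5312 in WT (0.77 ± 0.08). CFBP2, another plastid fructose bisphosphatase, changed by -0.93 ± 0.09 in arid5, -2.29 ± 0.13 in the libraries labelled chr11/17 and -0.99 ± 0.12 in those labelled rlt1/2. RPI4, another isomerase gene, changed by -0.63, -2.05 and -0.75 in arid5 and the libraries labelled chr11/17 and rlt1/2.

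Of 11 cytosolic isoforms, 6 were called higher and 4 lower in arid5, 5 and 5 in the libraries labelled chr11/17 and 5 and 4 in those labelled rlt1/2. Shares over all genes tested were 47.9%, 71.8% and 47.9% called either way, and 24.6%, 36.0% and 24.0% called lower. FBA5, a cytosolic aldolase, had 1664 and 1803 in arid5, against 8882 and 8950 in WT (-2.36 ± 0.06). Counts of 149 and 304 were found in the libraries labelled chr11/17, against 8869 and 8937 in WT (-5.32 ± 0.27), and those labelled rlt1/2 had 1931 and 1703, against 9835 and 9879 in WT (-2.44 ± 0.08). Its change was below that of every one of the 34 genes in the libraries labelled chr11/17. CYFBP, the cytosolic fructose bisphosphatase of sucrose synthesis, changed by -1.62, -3.30 and -1.47, and FBA7, another cytosolic aldolase, by -1.28, -2.37 and -1.20.

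**Figure D4:**
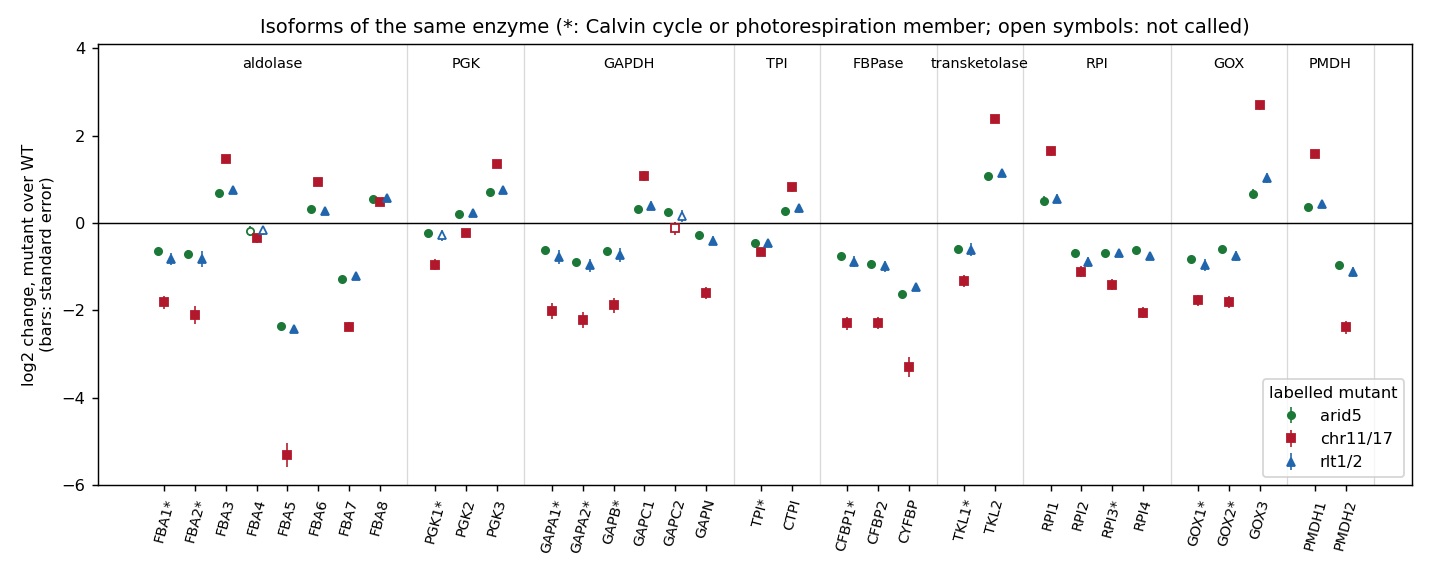
Log2 change of the normalised read count plus 10, mutant over WT, for isoforms of the same enzyme; symbols are arid5 (circles), chr11/17 (squares) and rlt1/2 (triangles), bars are standard errors, asterisks mark genes among the 34 and open symbols were not called. FBA5 lies lowest (-5.32 in the libraries labelled chr11/17), while TKL2 and GOX3 lie highest there (2.38 and 2.70).

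Of 24 other photorespiratory genes, transporters and ammonia recycling included, 7 were called higher and 14 lower in arid5, 9 and 14 in the libraries labelled chr11/17 and 7 and 13 in those labelled rlt1/2. Beside these stand 47.9%, 71.8% and 47.9% of all genes tested called either way, and 24.6%, 36.0% and 24.0% called lower. GS2, the plastid glutamine synthetase that recaptures ammonia, had 28658 and 31846 in arid5, against 64470 and 62743 in WT (-1.07 ± 0.08), and changed by -2.28 ± 0.19 in the libraries labelled chr11/17 and -1.06 ± 0.15 in those labelled rlt1/2. GOX3, another glycolate oxidase gene, was higher in the libraries labelled chr11/17, with 2730 and 2266, against 368 and 381 in WT (2.70 ± 0.10), and was also called higher in arid5 (0.67 ± 0.10) and in the libraries labelled rlt1/2 (1.03 ± 0.11). Of the peroxisomal malate dehydrogenases, PMDH1 was higher in every mutant (0.37, 1.58 and 0.43 in arid5 and the libraries labelled chr11/17 and rlt1/2) and PMDH2 lower in every mutant (-0.97, -2.39 and -1.13 in the same order). GLDH3, another H protein, changed by -0.81, -2.19 and -0.89 in the same order. LPD2, a mitochondrial lipoamide dehydrogenase, changed by 0.56, 1.32 and 0.69, and BOU, a mitochondrial carrier, by -0.87, -1.44 and -0.73.

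Of 13 other genes for Rubisco assembly and repair, 11 were called lower and 1 higher in each mutant. All genes tested were called lower in 24.6% of cases in arid5, 36.0% in the libraries labelled chr11/17 and 24.0% in those labelled rlt1/2. RAF2, an assembly factor, changed by -0.75 ± 0.06 in arid5, -1.72 ± 0.13 in the libraries labelled chr11/17 and -0.87 ± 0.08 in those labelled rlt1/2. CBBY, a phosphatase of a Rubisco inhibitor, changed by -0.75, -2.33 and -0.78 in arid5 and the libraries labelled chr11/17 and rlt1/2. CPN60B1, a chaperonin subunit, changed by -0.88, -1.84 and -0.82 in the same order, and BSD2, a chaperone of the large subunit, by -0.48, -1.23 and -0.68. The gene called higher in each was CPN60B3, another chaperonin subunit, for example with 1688 and 1793 in the libraries labelled rlt1/2, against 1094 and 1038 in WT (0.70 ± 0.08).

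The light reactions, which supply the cycle with ATP and NADPH, moved in the same direction. All 22 listed genes were called lower in each mutant, with medians of -0.95 in arid5, -2.55 in the libraries labelled chr11/17 and -1.09 in those labelled rlt1/2. The shares of all genes tested called lower were 24.6%, 36.0% and 24.0% in the same order. PETE1, a plastocyanin, changed by -0.88 ± 0.07 in arid5, -2.67 ± 0.16 in the libraries labelled chr11/17 and -0.93 ± 0.09 in those labelled rlt1/2. PETC, the Rieske protein of the cytochrome complex, changed by -0.89, -1.99 and -1.05 in arid5 and the libraries labelled chr11/17 and rlt1/2. In the same order LHCB1.2, a light-harvesting protein with close copies in the genome, changed by -1.63, -3.83 and -1.57, and LHCB2.2, another light-harvesting protein, by -1.08, -3.53 and -1.26. PSAD1, a photosystem I subunit, changed by -0.95, -2.50 and -1.01, and ATPC1, a subunit of the ATP synthase, by -0.88, -2.08 and -1.004. Over the list the changes ran between -1.63 and -0.83 in arid5, -3.83 and -1.99 in the libraries labelled chr11/17, and -1.57 and -0.93 in those labelled rlt1/2. These medians lie below those of the 34 genes (-0.75, -1.95 and -0.89), and no test of that difference was made.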

How the data were processed

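Per the labels, groups and replicate numbers name 2 libraries each of arid5, chr11/17, rlt1/2 and WT. The submitters' processing notes name HISAT2, edgeR and the TAIR10 build; versions, read counter, annotation and strand setting were not given in the sources used here. The authors deposited 3 tables of a normalised signal per gene, each holding WT and 1 mutant and normalized separately, so levels were compared within a table. The deposited signal equals edgeR's quantile adjustment of read counts to a common library size. Inverting it returned whole reads for 100% of values in each of the 12 columns (relative tolerance 1e-09), with 0 differences between tables in the WT reads. The inversion also returned 100% of simulated reads. No columns lacked a sample.

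Each mutant was tested against WT with limma 3.58.1 (trend) on log2(signal + 10), over genes with at least 10 in at least 2 libraries. All tests are two-sided, with Benjamini-Hochberg adjustment over the genes of that table, and "called" means an adjusted p below 0.05. Errors written after ± are standard errors of the log2 change with 2 libraries a group; a fold change on this scale understates that of low genes. The design had foreseen counts or normalised values, and the normalised case applied. Mutants were compared with edgeR 4.0.16 (quasi-likelihood, TMM, filterByExpr) on recovered reads of the 22636 genes in all tables, fitted over all 8 libraries; the standard error is the log2 difference over the root of F, and the 95% intervals use the t quantile of that test. Shares of reads and levels per exon length use the same reads.

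Promoters, gene models and shared 50-base words come from the RefSeq annotation of TAIR10.1, read with Python 3.11.15. The members and lists were chosen with earlier results of these data known. The text names all 34 genes, the 5 mutated genes and, from each other list, up to 3 called genes per mutant with the smallest adjusted p, except for a result that is not reported here. DESeq2 1.42.0, other scalings, pseudocounts, filters and leaving out each library were alternatives. The inversion and the tests were checked on simulated data.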

Additional observations from a re-analysis of the deposited data

How the results depend on the processing

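With 2 libraries a group, single calls near the threshold depend on the processing, above all in the libraries labelled rlt1/2. The counts called lower under quantile normalization were 22 of 34 in arid5, 33 in the libraries labelled chr11/17 and 24 in those labelled rlt1/2, and 1 (PGK1) was called higher in arid5. The genes turned in direction by it were PGK1 (0.22), RBCS3B (0.090) and FBA2 (0.051) in arid5, and RBCS3B (0.24), FBA2 (0.032), TKL1 (0.026) and PGK1 (0.18, not called in either fit) in the libraries labelled rlt1/2; equal library totals turned PGK1 in arid5 (0.039). Calls lost without a turn under quantile normalization were RBCS1A, RCA, GAPA1, GAPB, TKL1, CAT2, GLDT and SHM1 in arid5. They were RBCS1A in the libraries labelled chr11/17, and RBCS1A, RCA, GAPA1, GAPB, GLDT and SHM1 in those labelled rlt1/2. Quantile normalization gives all libraries of a table the same value at each rank. A gene of equal rank in all of them, as RBCS1A and RCA are outside chr11/17, therefore comes out at 0. RBCS3B ranked 8 in both WT libraries, 7 and 7 in arid5 and 4 and 6 in those labelled rlt1/2. PGK1 ranked 81 and 80 in WT, 72 and 67 in arid5 and 68 and 74 in those labelled rlt1/2. TKL1 ranked 45 in both WT libraries, and 43 and 44 in those labelled rlt1/2. FBA2 ranked 22 and 23 in WT, 23 and 20 in arid5 and 20 and 24 in those labelled rlt1/2. The cause of these and the other changes was not tested. With equal library totals, 32, 33 and 29 of 34 were called lower; the median of all genes moved to 0.25, 0.15 and 0.27, and the median of the 34 lay 0.74, 1.93 and 0.88 below it. All genes called higher and lower were then 9761 and 2677 in arid5, against 4784 and 5062 in the reported fit, 8874 and 6273, against 7485 and 7507, in the libraries labelled chr11/17, and 9705 and 2691, against 4944 and 4982, in those labelled rlt1/2. Between mutants that scaling gave 5636 higher and 8319 lower for chr11/17 against arid5 (6862 and 7021 as reported), and 5425 and 8455 for chr11/17 against rlt1/2 (6853 and 6947 as reported).

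Leaving out each library gave 31 to 33 genes lower in arid5, 31 to 34 in the libraries labelled chr11/17 and 23 to 34 in those labelled rlt1/2, with 0 higher. Between mutants it gave 30 to 31 lower for chr11/17 against arid5, 28 to 29 for chr11/17 against rlt1/2, each with 1 higher, and 0 for rlt1/2 against arid5. The labels do not say that replicate numbers pair samples. Deviations of same-numbered libraries correlated at -0.003 in arid5, 0.01 in the libraries labelled chr11/17 and 0.16 in those labelled rlt1/2 over genes. Whether same-numbered libraries share an effect was not tested. A fit with the replicate number as a block gave 33, 34 and 34 genes lower than WT (PGK1 in the libraries labelled rlt1/2 passing, at -0.29). Between mutants it gave 31, 29 and 0. Over all genes the block fit called 9915, 14833 and 11364 against WT, where the reported fit called 9846, 14992 and 9926.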
